A study of Mus musculus with 9 samples.

Results

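Transcripts of 9 CC chemokine genes and of the chemokine receptor gene Ccr7 were followed across 9 Affymetrix arrays of mouse dendritic cells. The genes are Ccl2, Ccl3, Ccl4, Ccl5, Ccl6, Ccl7, Ccl9, Ccl17, Ccl22 and Ccr7. They were chosen by gene name: every probe set whose platform symbol is one of these 10 was taken, which gave 10 probe sets, 1 per gene, of 12488 on one array design and the same 10 of 12654 on the other, that is 10 of the 8252 genes named on the first. All RNA came from dendritic cells at day 10. The groups, with 3 arrays each, are labelled B6 (the control strain), CIITA-/- (lacking the transcriptional coactivator that switches on MHC class II) and IAb-/- (lacking the beta chain of a class II molecule). Experiment 1 was run on the design with 12654 probe sets and experiments 2 and 3 on the other, so each group has 1 array in experiment 1 and 2 arrays in the 6-array table of experiments 2 and 3. One CIITA-/- title lacks an experiment number and was given 2, the number left over in its group. The labels give no age, sex, culture conditions or source of the cells, and do not say whether arrays of a group are separate mice, so any p-value reflects array-to-array spread that may be technical.

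Chemokines are small secreted proteins that steer cells by binding G protein-coupled receptors. CC chemokines carry adjacent cysteines near the amino terminus. Ccl3, Ccl4 and Ccl5 attract leukocytes to inflamed tissue, Ccl17 and Ccl22 attract T cells through Ccr4, Ccl2 and Ccl7 call monocytes through Ccr2, and Ccl6 and Ccl9 act on Ccr1. Ccr7 is a receptor rather than a ligand: it brings maturing dendritic cells to lymph nodes along gradients of Ccl19 and Ccl21.

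By RefSeq gene order in mouse (GRCm38.p6), most of the ligand genes lie beside one another. Ccl2 and Ccl7 are neighbours on chromosome 11, and further along Ccl5, Ccl9, Ccl6, Ccl3 and Ccl4 follow in a row with 0 other protein-coding genes between them. Ccl22 and Ccl17 lie on chromosome 8 with 1 protein-coding gene between them, Cx3cl1. Promoter sequences from RefSeq (same build) were matched for 5 of the 10 genes: Ccl3, Ccl6, Ccl9, Ccl17 and Ccl22. The 250 bases before the annotated start are shown 5′ to 3′ on the gene's strand for all 5, whatever their levels. For Ccl6 and Ccl9 all deficient arrays of experiments 2 and 3 lay above B6. In those experiments Ccl17 and Ccl22 had their highest and lowest values on the IAb-/- arrays, and the IAb-/- arrays of Ccl3 stood apart from B6. Capitals mark matches, on either strand, to GGG and TTTCC spaced by 2 bases (a form of the NF-kB site), TTC and GAA spaced by 4 bases (a form bound by STAT6), GGAAGT (the core of ETS family sites), TGACTCA (AP-1) and TATAAA. These motifs were chosen with the sequences in view.
Ccl6, chr11:83593088-83593337, minus strand: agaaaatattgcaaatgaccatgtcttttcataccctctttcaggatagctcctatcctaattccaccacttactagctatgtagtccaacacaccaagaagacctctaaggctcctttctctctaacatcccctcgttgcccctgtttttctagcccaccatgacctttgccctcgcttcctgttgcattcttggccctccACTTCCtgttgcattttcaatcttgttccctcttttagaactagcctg
Ccl9, chr11:83578637-83578886, minus strand: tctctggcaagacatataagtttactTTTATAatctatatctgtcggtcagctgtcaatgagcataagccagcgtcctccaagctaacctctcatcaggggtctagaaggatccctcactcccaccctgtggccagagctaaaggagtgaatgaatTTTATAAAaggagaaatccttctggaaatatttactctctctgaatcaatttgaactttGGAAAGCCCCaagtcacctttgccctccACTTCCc
Ccl17, chr8:94810203-94810452, plus strand: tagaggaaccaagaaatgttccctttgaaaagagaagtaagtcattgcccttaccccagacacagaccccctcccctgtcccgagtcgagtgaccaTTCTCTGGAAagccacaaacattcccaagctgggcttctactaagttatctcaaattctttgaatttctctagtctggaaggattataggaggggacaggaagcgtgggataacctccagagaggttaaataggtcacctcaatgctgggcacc
Ccl22, chr8:94745434-94745683, plus strand: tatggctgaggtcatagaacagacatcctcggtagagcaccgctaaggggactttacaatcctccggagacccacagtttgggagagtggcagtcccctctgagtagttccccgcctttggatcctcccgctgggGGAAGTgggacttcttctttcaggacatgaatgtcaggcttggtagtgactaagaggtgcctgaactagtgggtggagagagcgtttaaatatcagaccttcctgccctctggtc
Ccl3, chr11:83649379-83649628, minus strand: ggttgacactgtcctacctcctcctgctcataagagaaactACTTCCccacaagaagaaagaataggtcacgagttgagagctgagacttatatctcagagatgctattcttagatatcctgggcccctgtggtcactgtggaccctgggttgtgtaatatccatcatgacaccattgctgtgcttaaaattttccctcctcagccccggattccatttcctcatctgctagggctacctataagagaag

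In these windows the NF-kB form was found in Ccl9 alone, 35 to 26 bases before the start on the opposite strand. All 32851 RefSeq windows of this length were searched in the same way, and 1.41% of them hold it. The STAT6 form was found in Ccl17 alone, 154 to 145 bases before the start, against 5.85% of all windows. GGAAGT was found in 4 of the 5 windows (Ccl3, Ccl6, Ccl9 and Ccl22), against 19.7% of all. TATAAA was found in Ccl9 alone, at 3 places of which 1 pair overlaps, against 12.4%, and TGACTCA in none of the 5, against 4.46%. The longest run shared by the Ccl6 and Ccl9 windows has 13 bases, gccctccacttcc, and holds the GGAAGT match of both. It lies 55 to 43 bases before the Ccl6 start and 14 to 2 bases before that of Ccl9. A match describes letters only, and since the motifs were chosen with these windows in view, the shares are not a test. No binding was measured here.

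Levels are intensities in arbitrary units on a linear scale, as deposited, with an SD over the 2 arrays of experiments 2 and 3 where given. The tables hold no detection calls, so negative values served to set a noise limit, the size that 95% of them stay under: 1701 in the 6-array table and 2203 in the table of experiment 1. The tables were scaled separately and probe sets differ in brightness, so levels are compared within a table and within a gene. In both tables, 8 of the 10 genes lay above the limit on every array. Ccl2 lay above it on some arrays and Ccl7 on none.

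The cells carried dendritic cell transcripts. Of 10 dendritic cell markers 9 were measured and all 9 lay above the noise limit on at least 1 array, as did 4 of 11 macrophage, 4 of 10 neutrophil and 4 of 7 B cell markers, 1 of 6 of fibroblasts, and 0 of 7 of T cells, 0 of 5 of NK cells and 0 of 5 of mast cells. Of the macrophage markers Csf1r, Cd14, Cd68 and Msr1 lay above the limit on all 6 arrays of experiments 2 and 3 (Cd68 from 5197 to 7740), while Adgre1, Mrc1, Mertk, Marco and the 3 C1q genes lay below it on all 6. The summed macrophage list, with values below 0 counted as 0, ran from 17160 to 21303 in B6, from 19674 to 21272 in CIITA-/- and from 19674 to 23331 in IAb-/-. The summed neutrophil list ran from 10918 to 12851, from 11900 to 15222 and from 13270 to 16070, and its highest member in IAb-/- was Lcn2, a siderophore-binding protein that other cells make too, at 6575 and 4726 against 1970 and 1704 in B6. Without Lcn2 the neutrophil sum was 9495 and 8544 in IAb-/- and 12627 and 8944.5 in CIITA-/-, against 10881 and 9215 in B6. With Lcn2 counted, 2 of the 8 tested neutrophil markers were higher in IAb-/- by value, with a median log2 difference of -0.09. In CIITA-/- 5 of the 8 were higher, with a median of 0.23. The part of macrophages and neutrophils in the chemokine values was not tested. In bulk RNA fewer cells of a type and less RNA per cell cannot be told apart. As for the labels, H2-Aa, a class II chain gene that CIITA drives, read 51407 and 53578 in B6 and below 0 on every CIITA-/- array. Cd74, from the dendritic cell list, was not lower in CIITA-/-, at 146496 and 142067 against 138308 and 129594 in B6. The targeted genes do not check the labels, since it is not known whether their probe sets lie in the deleted parts: Ciita lay under the noise limit on all 9 arrays, and H2-Ab1 was still at 16070 and 9621 in IAb-/-. The IAb-/- label thus has no check here.

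Fits and p-values come from limma on log2 intensities of the 6 arrays, over 9312 probe sets, with adjustment over all of them; values under 123.5 were first set to that floor. No chemokine probe set, nor Ccr7, passed an adjusted p of 0.05 in any comparison. In CIITA-/- against B6 this is 0 of 10, where 0.0966% of all tested probe sets passed, and 0 of 10 had an unadjusted p under 0.05, against 5.86%. In IAb-/- against B6 it is 0 of 10 against 0.0107%, with 2 of 10 at an unadjusted p under 0.05 (Ccl3 and Ccl4, both higher) against 4.31%. In CIITA-/- against IAb-/- it is 0 of 10 against 0.0215%, with 0 at an unadjusted p under 0.05 against 4.54%. What follows describes levels and how far groups overlap.

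**Figure D1:**
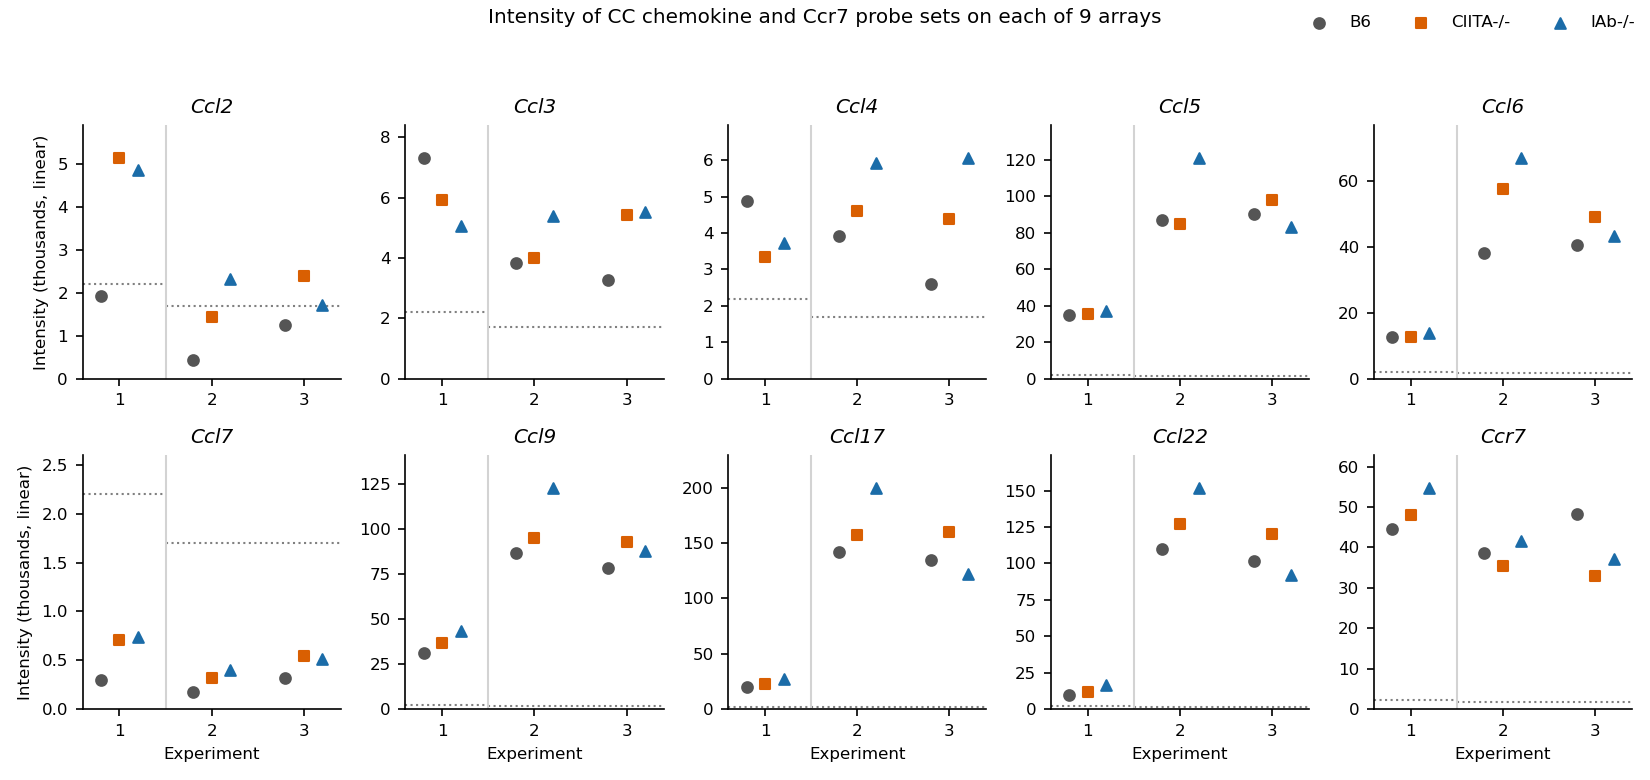
Intensity (arbitrary units, linear axis from 0) of each gene's probe set on the 9 arrays, by experiment and group; dotted lines are the noise limits and the vertical line separates the 2 array designs, whose levels are not comparable. Ccl2 lies lowest in B6 in each experiment, Ccl3 and Ccl4 lie highest in B6 in experiment 1 and lowest in experiments 2 and 3, and Ccl17 and Ccl22 peak on the IAb-/- array of experiment 2.

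The monocyte attractants Ccl2 and Ccl7 were measured at low levels, and their fitted differences depend on the floor. In experiments 2 and 3, Ccl2 read 443 and 1257 in B6, 1448 and 2384 in CIITA-/- and 2326 and 1713 in IAb-/-; pairs of values below keep this order of experiments. All 4 deficient arrays lay above both B6 arrays, while the CIITA-/- and IAb-/- arrays overlapped. Both B6 arrays lay under the noise limit, as did 1 of the CIITA-/- arrays. For CIITA-/- no bound is given, since its mean holds a value within noise. For IAb-/- the difference has only a bound, at least 1.17-fold higher. On the floored log2 scale the difference was 1.32 (SE 0.58, limma adjusted p = 0.9) and 1.42 (adjusted p = 1), with wide intervals reaching from -0.20 to 2.83 and from -0.095 to 2.94. With the floor at the noise limit it was 0.243 and 0.23, without the B6 array of experiment 2 0.564 and 0.667, and without that of experiment 3 2.07 and 2.17. In experiment 1 Ccl2 read 1938.5 in B6, again under the limit, and 5145 in CIITA-/- and 4862 in IAb-/-, both above it, at least 2.34-fold and 2.21-fold higher with 1 array each.

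Ccl7, the other Ccr2 ligand and the neighbour of Ccl2, had group means lowest in B6 as Ccl2 did, at levels within noise. It read 172 and 319.6 in B6, 319 and 541 in CIITA-/- and 400.1 and 513 in IAb-/-, and in experiment 1 301 in B6, 708 in CIITA-/- and 742 in IAb-/-. The IAb-/- arrays lay above both B6 arrays and the CIITA-/- arrays overlapped them by less than 1 unit. No fold is given because every value lies under the noise limit. Ccl2 and Ccl7 were higher than B6 within all 3 experiments, in both deficient groups, on the deposited scale, after quantile normalization and after scaling to the spike-in controls. Of the other members Ccl9 was so on the deposited scale, and Ccl9 and Ccl22 after quantile normalization. The share of all probe sets higher in both groups at once was not counted, and both groups are set against the same B6 arrays. With all 9 arrays in one fit and the experiment as a block, Ccl2 differed by log2 1.35 and 1.39 (SE 0.35), neither passing after adjustment (limma, adjusted p = 0.90 and 0.92). In that fit 2 of 10 members were higher at an unadjusted p under 0.05 in CIITA-/- (Ccl2 and Ccl7), against 2.19% of all, and 3 of 10 in IAb-/- (with Ccl9), against 2.44%; Ccl7 lies within noise.

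**Figure D2:**
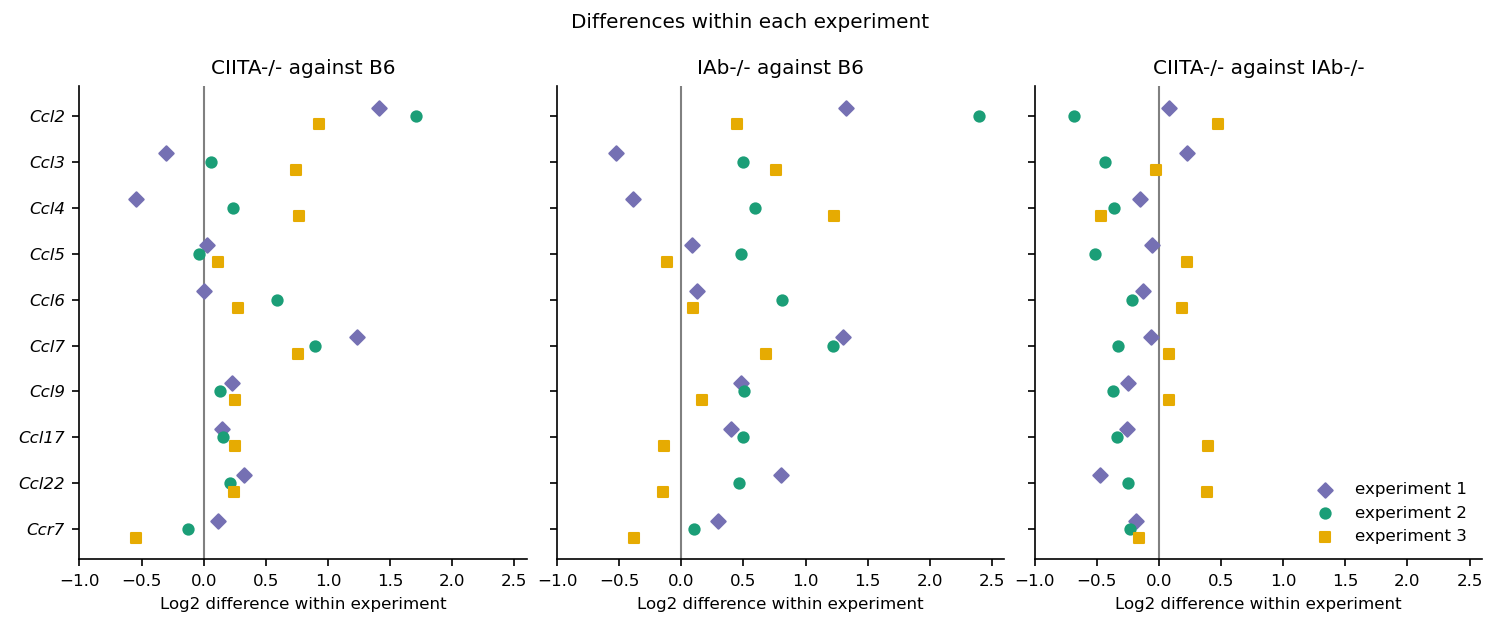
Log2 difference of each gene within experiment 1 (diamonds), 2 (circles) and 3 (squares), for the 3 pairs of groups; each point is 1 array against 1 array. Ccl2 and Ccl7 lie to the right of 0 in every experiment against B6, and Ccl3 and Ccl4 lie left of 0 in experiment 1 and right of it in experiments 2 and 3.

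Among the inflammatory ligands, Ccl3 (MIP-1 alpha) and Ccl4 (MIP-1 beta), neighbouring genes, were higher by value in both deficient groups in experiments 2 and 3 and lower in experiment 1. Ccl3 read 3835 and 3256 in B6, 3989.9 and 5442 in CIITA-/- and 5398 and 5530.0 in IAb-/-. The IAb-/- arrays lay close to each other, at 5464 ± 93 against 3545 ± 409 in B6 (SD, n = 2). The difference was 1.55-fold (log2 0.63, SE 0.21, 95% interval 0.08 to 1.18), with an adjusted p of 1 (limma). CIITA-/- was at 4716 ± 1027, a log2 difference of 0.40 from B6 (limma adjusted p = 0.93), and its lower array lay close to B6.

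Ccl4 read 3914 and 2588 in B6, 4609 and 4396 in CIITA-/- and 5919 and 6058 in IAb-/-. The 3 groups did not overlap, in the order B6, CIITA-/-, IAb-/-, although the gap between B6 and CIITA-/- was smaller than the gap between the B6 arrays. IAb-/- was at 5988 ± 98 against 3251 ± 938 in B6 (SD, n = 2), a 1.88-fold difference (log2 0.91, SE 0.23, limma adjusted p = 0.87). CIITA-/- was 1.41-fold above B6 (log2 0.50, 95% interval -0.12 to 1.12, adjusted p = 0.91). In experiment 1 the order turned: Ccl4 read 4881 in B6, 3351 in CIITA-/- and 3725 in IAb-/-, and Ccl3 read 7312, 5933 and 5074. With all 9 arrays in one fit and the experiment as a block, the IAb-/- difference shrank to log2 0.24 (SE 0.28) for Ccl3 and 0.48 (SE 0.31) for Ccl4, neither passing (limma, adjusted p = 0.92). On the scale of the spike-in controls the fitted differences were 0.53 and 0.82, and within experiment 2 they were -0.03 for Ccl3 and 0.07 for Ccl4.

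Ccl5 (RANTES) showed no separation. It read 86752 and 90373 in B6, 84572 and 97605 in CIITA-/- and 120778 and 83290 in IAb-/-. B6 lay inside the range of both other groups, and the fold was 1.03 in CIITA-/- (95% interval 0.678 to 1.55) and 1.13 in IAb-/- (0.748 to 1.71), with limma adjusted p of 0.99 and 1. In experiment 1 the values were 34791, 35458 and 36900.3.

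Ccl6 and Ccl9, Ccr1 ligands of macrophages and dendritic cells, lay higher than B6 in both deficient groups in experiments 2 and 3. Ccl6 read 38314 and 40756 in B6, 57680 and 49310.0 in CIITA-/- and 67068 and 43465 in IAb-/-. Its fold over B6 was 1.35 in CIITA-/- (log2 0.43, SE 0.25) and 1.37 in IAb-/- (log2 0.45), with limma adjusted p of 0.93 and 1. In experiment 1 the B6 array read 12584, the CIITA-/- array 12583 and the IAb-/- array 13757.

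Ccl9 read 86410 and 78104 in B6, 94711 and 92781 in CIITA-/- and 122369 and 87616 in IAb-/-, and in experiment 1 31151, 36504 and 43368. All deficient arrays again lay above both B6 arrays, and the order B6, CIITA-/-, IAb-/- of the means held in experiment 1. The differences were small: log2 0.19 (95% interval -0.36 to 0.74, limma adjusted p = 0.93) in CIITA-/- and 0.33 (-0.21 to 0.88, adjusted p = 1) in IAb-/-. With all 9 arrays and the experiment as a block the IAb-/- difference was log2 0.38 (SE 0.13, limma unadjusted p = 0.029, adjusted p = 0.92).

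For the Ccr4 ligands the CIITA-/- arrays lay above B6 by value and the IAb-/- arrays lay on both sides of it. Ccl17 (TARC) read 141582 and 134527 in B6, 157638 and 160370 in CIITA-/- and 199441 and 121797 in IAb-/-. Both CIITA-/- arrays lay above both B6 arrays (log2 0.20, SE 0.27, limma adjusted p = 0.93), while the IAb-/- arrays held the highest and the lowest value of all 6. Ccl22 (MDC) had its groups in the same order, at 109820 and 101662 in B6, 127396 and 120282 in CIITA-/- and 151512 and 91858 in IAb-/-. Its CIITA-/- difference was log2 0.23 (95% interval -0.49 to 0.94, adjusted p = 0.93). In experiment 1 Ccl17 read 20288 in B6, 22478 in CIITA-/- and 26797 in IAb-/-, and Ccl22 read 9606, 12033 and 16715, so the IAb-/- array was highest there. Cx3cl1, the fractalkine gene that lies between them, was at 10420 ± 3994 in B6, 7286 ± 826 in CIITA-/- and 8248 ± 495 in IAb-/- (SD, n = 2), with no separation.

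Ccr7 was the one member with a lower value in both deficient groups in the fit. It read 38549 and 48217 in B6, 35376 and 33027 in CIITA-/- and 41487 and 37014 in IAb-/-. Both CIITA-/- arrays lay under both B6 arrays, a 0.793-fold level (log2 -0.33, SE 0.18, 95% interval -0.80 to 0.13, limma adjusted p = 0.93), and the IAb-/- arrays overlapped B6 (log2 -0.14, adjusted p = 1). The B6 arrays differ from each other by more than the lower of them differs from CIITA-/-. In experiment 1 B6 was the lowest, with 44450.2 in B6, 48050 in CIITA-/- and 54577 in IAb-/-. CIITA-/- lay below IAb-/- for Ccr7 within each of the 3 experiments, at log2 -0.18, -0.23 and -0.16, as it did for Ccl4 (2 of 10 members, against 11.9% of all probe sets); in the fit the Ccr7 difference was -0.20 (SE 0.18, adjusted p = 1). For Ccr7 this order flips in experiment 2 once arrays are scaled to the spike-in controls.

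**Figure D3:**
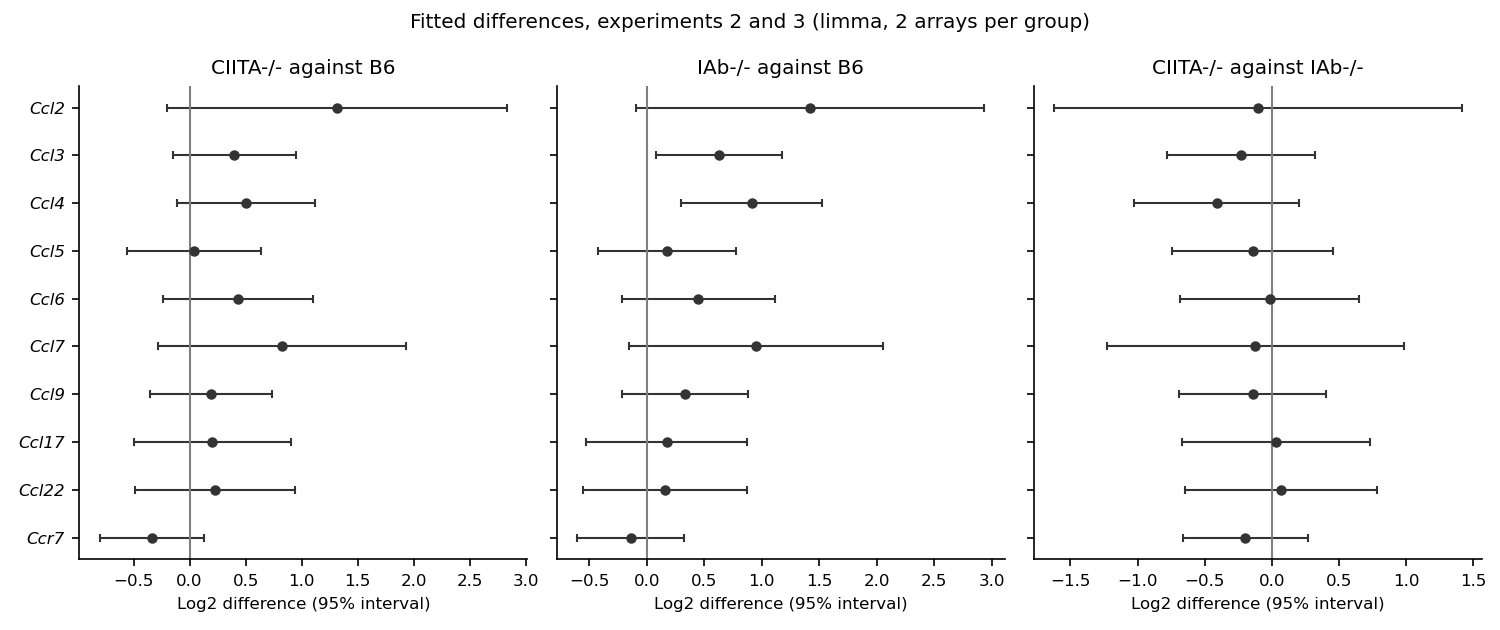
Fitted log2 difference (points) with its 95% interval (bars) for each gene in the 3 comparisons, from limma on experiments 2 and 3 with 2 arrays per group; the intervals are not adjusted for multiple testing. Only the intervals of Ccl3 and Ccl4 in IAb-/- against B6 exclude 0, and neither passes after adjustment.

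Read together, more members lay above B6 than below it. In CIITA-/- against B6, 7 of 10 had both arrays above both B6 arrays, where 20.4% of tested probe sets did, and 1 of 10 (Ccr7) had both below, against 17.3%. In IAb-/- against B6 the counts were 6 of 10 against 15.8% and 0 of 10 against 15.4%. Among those above, Ccl2 counts in both groups and Ccl7 in IAb-/-, and for both genes the B6 arrays lay within noise. The median log2 difference over the 10 was 0.31 in CIITA-/- and 0.39 in IAb-/-, beside 0.0139 and 0.00501 for all tested probe sets. Within experiments the median of the 10 was 0.13, 0.185 and 0.26 for CIITA-/- and 0.35, 0.50 and 0.13 for IAb-/-, in experiments 1, 2 and 3. Higher in each of the 3 experiments were 5 of 10 in CIITA-/- (Ccl2, Ccl7, Ccl9, Ccl17 and Ccl22), against 13.6% of 7610 probe sets, and 4 of 10 in IAb-/- (Ccl2, Ccl6, Ccl7 and Ccl9), against 12.7%. Of these, Ccl7 lies within noise on every array and Ccl2 does so in B6. Over probe sets above the noise limit on all 6 arrays of experiments 2 and 3, the counts were 3 of 8 members against 17.8% in CIITA-/-. In IAb-/- they were 2 of 8 against 14%. Both comparisons use the same B6 arrays. Between the deficient groups, 2 of 10 (Ccl4 and Ccr7) were lower in CIITA-/- on both arrays, against 12.1%, 0 were higher, against 13%, and the median was -0.13.

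On the arrays where the spike-in controls were high, several members were high too. Spike-in controls (BioB, BioC, BioDn and Cre, bacterial and phage RNAs added in fixed amounts) had a geometric mean over 9 probe sets of 14182 and 14198 in B6, 15871 and 15454 in CIITA-/- and 20359 and 11296 in IAb-/-. On the IAb-/- array of experiment 2 they thus lay log2 0.52 above the B6 mean, where Ccl17 lay 0.53, Ccl22 0.52, Ccl9 0.57 and Ccl5 0.45 above it. On the IAb-/- array of experiment 3 they lay -0.33 from it, Ccl22 -0.20, Ccl17 -0.18 and Ccl5 -0.09, but Ccl9 0.09. Ccl3 and Ccl4 lay 0.65 and 0.93 above the B6 mean on that array. Ccl6 stood further from the spikes, 0.76 above B6 on the first of these arrays and 0.14 on the other, and Ccr7 did not follow them upward, at -0.06 and -0.22.

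The same counts were made over bright probe sets. Of the 253 above 30000 on all 6 arrays, a limit set after the values were seen, 50.6% had both CIITA-/- arrays above both B6 arrays, and of the 6 members among them 4 did (Ccl6, Ccl9, Ccl17 and Ccl22). The median difference of the 253 was log2 0.08, and that of the 6 members 0.20. In the other direction 7.91% of the 253 had both CIITA-/- arrays below both B6 arrays, Ccr7 among them. In IAb-/- against B6, 13% of the 253 and 2 of the 6 members (Ccl6 and Ccl9) lay above. The part of array brightness in these differences was not tested.

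**Figure D4:**
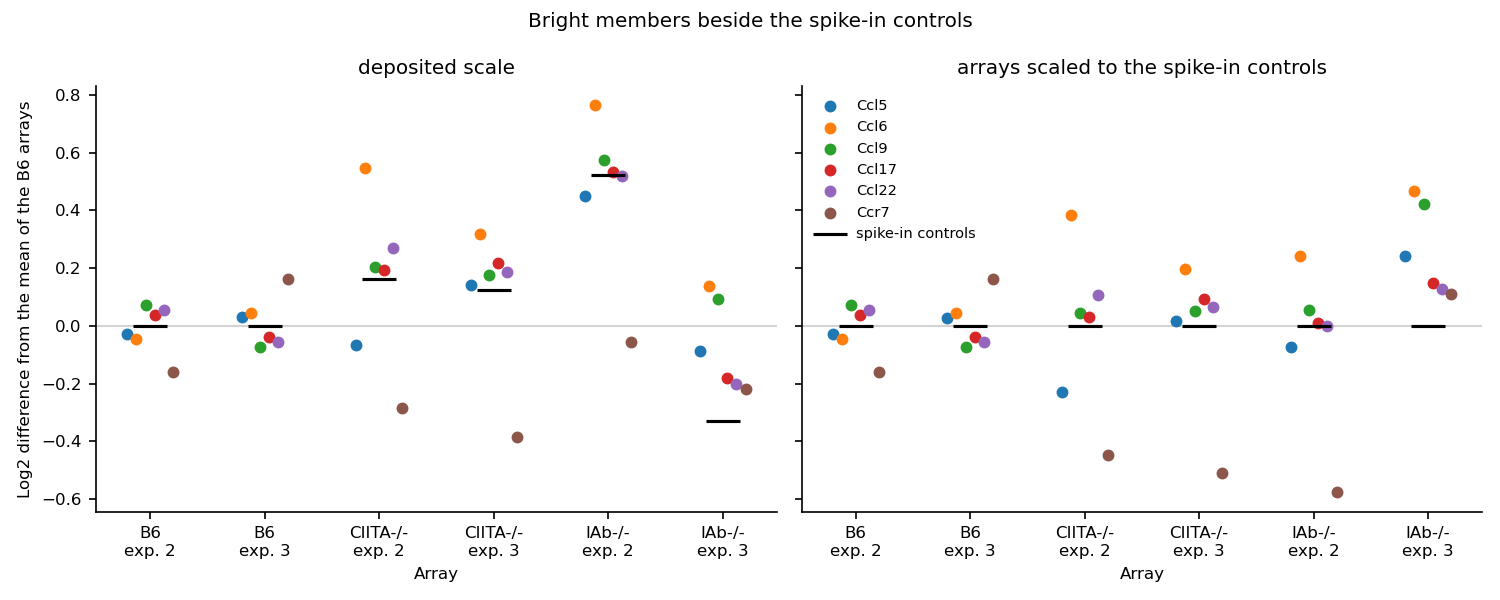
Log2 difference of the 6 members above 30000 on all 6 arrays from the mean of the B6 arrays (points) on each array of experiments 2 and 3, on the deposited scale (left) and after scaling every array to its spike-in controls (right); black bars are the spike-in controls, at 0 on the right by construction. On the IAb-/- array of experiment 2 the spikes lie at 0.52 and Ccl17 and Ccl22 beside them, while Ccl6 lies above and Ccr7 below.

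After quantile normalization the CIITA-/- difference against B6 was log2 0.02 for Ccl17, 0.10 for Ccl22 and 0.11 for Ccl9, but still 0.39 for Ccl6, 1.30 for Ccl2 and -0.38 for Ccr7. Scaling to the spikes moved the median of all tested probe sets to -0.12 in CIITA-/- and -0.08 in IAb-/- against B6, and within experiments 2 and 3 of IAb-/- to -0.49 and 0.31. The median of the 10 members was then -0.12, 0.0223 and 0.142 in CIITA-/- and 0.297, -0.0234 and 0.459 in IAb-/-, in experiments 1, 2 and 3, so that it turned sign in experiment 1 of CIITA-/- and in experiment 2 of IAb-/-, where 4 of 10 members were higher than B6. On that scale Ccl17 was at 0.06, Ccl22 at 0.09 and Ccr7 at -0.48 in CIITA-/-. No member passed under either scaling (limma, adjusted p of 0.87 or more). Higher in each of the 3 experiments in CIITA-/- were then 4 of 10 after quantile normalization, against 12.1% of all, and 3 of 10 (Ccl2, Ccl7 and Ccl22) on the spike scale, against 3.86%. In IAb-/- they were 5 of 10 against 11.8% and 3 of 10 (Ccl2, Ccl6 and Ccl7) against 4.07%. Lower in each of the 3 experiments on the spike scale were 2 of 10 in CIITA-/- (Ccl5 and Ccr7), against 36.1% of all. In IAb-/- 0 of 10 were lower on that scale, against 6.16%.

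The receptors and other members of the family were mostly dim. Of 25 other CC chemokine and receptor genes 17 were on the 6-array design, 12 were tested and 3 lay above the noise limit on at least 1 array (Ccr1, Ccr6 and Ackr4). In each comparison 0 passed in either direction (limma), and at an unadjusted p under 0.05 1 of 12 was higher in CIITA-/- (Ackr2), against 3.22% of all tested probe sets, and 3 of 12 in IAb-/- (Ccr1, Ccl8 and Ackr2), against 2.28%. Ccl8 and Ackr2 lay within noise on all 6 arrays and are named after their values were seen. Ccr1, the receptor that binds Ccl3, Ccl5, Ccl6 and Ccl9, read 3899 and 3623 in B6, 4591 and 6142 in CIITA-/- and 6207 and 6486 in IAb-/-. All 4 deficient arrays lay above both B6 arrays, by log2 0.50 in CIITA-/- (limma adjusted p = 0.85) and 0.76 in IAb-/- (SE 0.19, adjusted p = 0.86). In experiment 1 it was also higher, by 0.34 and 0.17. Ccr6, the Ccl20 receptor, lay above the noise limit on 1 of 6 arrays and had log2 differences of -0.35 and -0.34. Ackr4, a scavenger of Ccl19 and Ccl21, had differences of 0.04 and -0.0010.

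Of 25 CXC, C and CX3C chemokines and receptors 18 were measured and 12 tested, and 0 passed in any comparison (limma). At an unadjusted p under 0.05, 2 of 12 were higher in CIITA-/- against B6 (Xcl1 and Cx3cr1), against 3.22% of all, 1 of 12 was lower, against 2.64%, and 1 of 12 was higher in IAb-/- (Xcl1), against 2.28%. Xcl1 and Cx3cr1 lay within noise on all 6 arrays and are likewise named after the fact. The lower one was Cxcr4, the Cxcl12 receptor, at 1312 ± 202 in CIITA-/- against 2746 ± 1263 in B6 (SD, n = 2; log2 -0.99, limma adjusted p = 0.83), but 0.24 the other way in experiment 1, and with a difference of -0.35 in IAb-/-. Cxcr4 lay above the noise limit on 4 of 6 arrays and its CIITA-/- mean lay under it, so its CIITA-/- difference rests on values within noise. Cxcl1, a neutrophil attractant above the noise limit on 2 of 6 arrays, had a log2 difference of -0.53 in CIITA-/- and 0.58 in IAb-/- from B6. Cxcr2, its receptor, was at 0.15 and -0.23.

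Neither the machinery behind the receptors nor the NF-kB pathway, which induces many chemokine genes, had a member past the adjusted threshold. Of 22 receptor signalling genes 14 were measured and tested, with 0 passing (limma) and median log2 differences from B6 of 0.04 in CIITA-/- and 0.05 in IAb-/-. At an unadjusted p under 0.05 (limma) 0 of 14 were called in CIITA-/- against B6, against 5.86% of all tested probe sets. In IAb-/- 2 of 14 were higher (Vav1 and Rgs2, the latter within noise), against 2.28%. Vav1, an exchange factor for Rac, was at 2964 ± 150 in IAb-/- against 2197 ± 82 in B6 (SD, n = 2; log2 0.43, limma unadjusted p = 0.027, adjusted p = 1; 0.16 in experiment 1). Rgs14, which restrains G proteins, was at 0.30 in CIITA-/- and 0.14 in IAb-/-, Akt1 at -0.18 and -0.19, Gnai3 at 0.14 and Gnai2 at 0.12 in CIITA-/-, and Gnb1 at -0.16 in IAb-/-, none passing. Of 17 NF-kB genes 14 were measured, with 0 passing (limma) and medians of -0.11 in CIITA-/- and -0.05 in IAb-/- against B6. At an unadjusted p under 0.05 (limma) 0 of 14 were called in CIITA-/-, against 5.86% of all, and 0 of 14 in IAb-/-, against 4.31%. Among those above the noise limit on at least 1 array, the largest sizes against B6 were those of Ikbkg and Traf2. Ikbkg, the regulatory subunit of the IKK complex, was at -0.66 in CIITA-/- and -0.44 in IAb-/-. It lay above the limit on 4 of 6 arrays, and its means of 1386 in CIITA-/- and 1673 in IAb-/- lie under it. The adaptor Traf2 was at -0.51 in IAb-/-. Traf1, an NF-kB target, had differences of -0.37 and -0.27, but 0.25 in both groups in experiment 1. Nfkbie, above the noise limit on 2 of 6 arrays, was at 0.19 and 0.39, and Relb at -0.19 in CIITA-/-.

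Likeness over arrays was described for Ccr7, Ccl22, Ccl3 and Ccl9, as Pearson's r of log2 intensity over the 6 arrays, among 3692 probe sets above the noise limit on all of them. The values share the arrays and their brightness shifts. For Ccl3 the gene most alike was Ccr1 (r = 0.99), followed by Lamp2 and Kansl2, and 47 probe sets had an r over 0.9. In experiment 1, however, Ccr1 was lowest in B6, at 10326 against 13052 in CIITA-/- and 11620.0 in IAb-/-, while Ccl3 was highest there. For Ccl22 the closest were Rps28, Tpt1 and Basp1 (r = 1.00 each to 2 decimals), very bright probe sets, with 186 over 0.9. For Ccl9 they were Psap, Mmp12 and Arhgap9 (r = 0.99 each), with 82 over 0.9, and for Ccr7 Eif4ebp2, Selenok and Dbi (r = 0.96, 0.95 and 0.95), with 18.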

How the data were processed

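The authors deposited one linear-scale intensity for each probe set on each array, and between 21% and 26.4% of an array's values are below 0. How they were computed is not stated in the labels. Arrays were used as deposited. In each table values under its 30th percentile (123.5 and 93.2) were set to it and log2 was taken. Probe sets above this floor on at least 2 of the 6 arrays of experiments 2 and 3, controls aside, were fitted with limma 3.58.1 in R 4.3.3, with 3 groups sharing one spread (3 residual degrees of freedom) and Benjamini-Hochberg adjustment over 9312 probe sets. The script was tested on simulated data, with larger changes and a smaller spread than the members have. That test does not show whether differences of the members' size would be found. Experiment 1 was compared within itself. An "at least" fold sets the brighter group's mean log2 level against the noise limit, where all arrays of that group lie above it.

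The members, gene lists and tests were chosen with earlier results of these data known. The rule for named genes takes all members, label checks and the 3 genes most alike to each of Ccr7, Ccl22, Ccl3 and Ccl9. It also takes up to 4 genes per list by size of difference, among those above the noise limit on at least 1 array. Those against B6 are printed. Experiment numbers come from the titles. Differences between experiments 2 and 3 correlated across probe sets at 0.048, 0.079 and 0.21 between pairs of groups. Alternatives were other floors, no filter, quantile normalization, spike-in scaling, the experiment as a block, all 9 arrays and leaving out each array.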

Additional observations from a re-analysis of the deposited data

How the results depend on the processing

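No member passed in any comparison under any setting run, and 8 of 207 member differences turned sign with another setting. These were Ccl5 in CIITA-/- against B6 (-0.0605 after quantile normalization, -0.105 scaled to the spikes), Ccr7 in IAb-/- against B6 (0.00688 over 9 arrays with the block), and in CIITA-/- against IAb-/- Ccl2 (0.0131, floor at the noise limit), Ccl17 (-0.0653 over 9 arrays, -0.00937 quantile, -0.0177 spikes) and Ccl22 (-0.112 over 9 arrays). Calls over all probe sets in CIITA-/- against B6, IAb-/- against B6 and CIITA-/- against IAb-/- were 9, 1 and 2. They became 14, 5 and 7 with no filter, 5, 0 and 1 with the floor at the 40th percentile, 3, 0 and 4 with it at the noise limit, 10, 3 and 3 after quantile normalization, 9, 2 and 7 on the spike scale, and 0 to 1, 0 and 0 to 1 leaving out 1 array. With the replicate number as a block they were 0, 0 and 0, and over 9 arrays with the block 4, 0 and 3; the pairing changed no member's call.

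Leaving out 1 array turned 15 of 180 member differences. Without the IAb-/- array of experiment 2, Ccl5, Ccl17 and Ccl22 fell below B6, to -0.0882, -0.18 and -0.202, from ranges reaching 0.448, 0.531 and 0.52. Ccl5 in CIITA-/- ran from -0.0662 to 0.141 and Ccr7 in IAb-/- from -0.299 to 0.0237 (without the B6 array of experiment 3). In CIITA-/- against IAb-/- the ranges were -0.463 to 0.257 (Ccl2), -0.411 to 0.125 (Ccl5), -0.331 to 0.295 (Ccl6), -0.506 to 0.257 (Ccl7), -0.384 to 0.0975 (Ccl9), -0.327 to 0.385 (Ccl17) and -0.292 to 0.43 (Ccl22). The cause was not tested. Spike scaling and the floor at the noise limit were chosen after seeing the data. A floor at the 20th percentile was not run, since that percentile is below 0. With 2 arrays per group, precision is limited by their number, and Ccl2 and Ccl7 by signal over background.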

Other observations

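The members differed in brightness between the 2 array designs, which were scaled separately, so these ratios describe designs and experiments together and no test was made. Ccl22 was 9.28-fold brighter on the 6 arrays of experiments 2 and 3 than on the 3 of experiment 1, and Ccl17 6.54-fold, by geometric means, although the probe sets carry the same name and source accession. Over the 2876 shared probe sets above the noise limit on all 9 arrays the median ratio was 0.87, and these values lay at percentiles 99.9 and 99.8. Ccl6 (3.74-fold), Ccl5 (2.61-fold) and Ccl9 (2.53-fold) lay at percentiles from 98.5 to 99.4, Ccl4 (1.12-fold) at 84.9, Ccr7 (0.791-fold) at 33.5 and Ccl3 (0.742-fold) at 24.6. The cause was not tested.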
